A study of Homo sapiens with 3 samples.

Results

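The ATP-binding cassette (ABC) transporters were followed across the arrays of SMARCA4-knockdown HCT116 cells. Members were chosen by name: every non-control probe whose gene name is ABC with a subfamily letter from A to G and a number. The rule took 46 of 43299 gene names, read by 71 of the 58201 different probes on the array. The family was itself singled out with results of these arrays known, among them ABCC3, a gene that the study lists, so all values below are descriptions.

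ABC transporters are membrane proteins that use the energy of ATP binding and hydrolysis to move substrates across a membrane. Subfamily A moves mainly lipids, B holds the drug pump ABCB1 and several mitochondrial and lysosomal transporters, C holds the multidrug resistance proteins that export drugs and conjugated anions, D imports fatty acyl compounds into peroxisomes, and G moves sterols and drugs. The proteins of subfamilies E and F carry the ATP-binding cassettes but no membrane-spanning part, and act on ribosomes and translation. In the intestinal epithelium, members of B, C and G limit the uptake of drugs and toxins, and several are known for drug resistance in tumour cells.

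HCT116 is a human colorectal cancer cell line. The cells were transfected with small interfering RNA (siRNA) against SMARCA4, the ATPase of the SWI/SNF chromatin remodelling complex, or served as scrambled negative control (NC), and the time from transfection to harvest is not given in the sources used here. Each condition (SMARCA4-KD1, SMARCA4-KD2, NC) had 1 array, so no difference has a replicate check and no test was run. The labels name SMARCA4 in the titles but PRMT1 in the treatment field, from which the knockdown number was taken. The SMARCA4 probe read 3960.2 on the SMARCA4-KD1 array, 4128.9 on that of SMARCA4-KD2 and 14026.2 on that of NC, or 26.6% and 28.8% of NC after scaling, while PRMT1 was at 120.3% and 129.2%. Both knockdown arrays came from the same slide and the NC array from another, so slide and knockdown cannot be told apart. Both comparisons share the NC array, so an error of that array would enter both.

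Signals are the background-corrected intensities of the extraction software, given with the error that the software assigned to the spot. Fold changes are log2 differences from NC after each array was scaled to its 75th percentile, which lay between 223 and 237 in intensity. A probe was called lower or higher at 1.5-fold, the threshold in the study's methods. Of 10 epithelial marker genes, 8 were well above background on all arrays, with summed signals over the list of 480542, 467825 and 475325 in SMARCA4-KD1, SMARCA4-KD2 and NC. Sums of markers are of unscaled signals. KRT19 alone gave 211695, 217698 and 202585 of these, so they say little of dimmer markers. A KRT8 probe was called higher in SMARCA4-KD1 alone, at 0.78, with 0.53 in SMARCA4-KD2, and the other KRT8 probes were not called. KRT20, an intestinal keratin, was dim in NC and higher in the knockdowns by bounds of 1.10 and 1.49 on the log2 scale, and VIL1 was dim on all arrays. CLDN4, a tight junction protein, was lower in both at -0.67 and -0.68. No hepatocyte marker of 3 was well above background. Of the leukocyte markers 3 of 4 on the array were well above background, summing to 236.1, 189.8 and 202.2, of the fibroblast markers 1 of 5, COL1A1, which read 477.4, 387.5 and 347.7 (a sum over the list of 500, 410.1 and 377), and of the endothelial markers 2 of 4 (a sum of 114.4, 144.7 and 122.4), and the part of these markers in the results was not tested.

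The probes that carry the results below are shown by the first 30 of their 60 bases, 5′ to 3′, as the array files give them, so that the stretch of transcript behind each value can be found. Positions are hg19 and cover the whole probe. An exon annotation of hg19 was not used here.
ABCC3, probe A_33_P3298024 (transcript variant 2), chr17:48745220-48745279, plus strand: tcaggtgaccctgatcaccctctgggtgta
ABCC3, probe A_23_P207507 (transcript variant 1), chr17:48768701-48768760, plus strand: gtaactgtgctgaatgctttagatgaggaa
ABCA5, probe A_23_P78018, chr17:67243530-67243589, minus strand: actggagaaccaagaacgcacttgaaattt
ABCA12, probe A_33_P3367984, chr2:215796277-215796336, minus strand: atacaagtttgtcagctttggcatgactgt
ABCD3, probe A_33_P3307957 (transcript variant 2), chr1:94941224-94941283, plus strand: ccagctgcttacacaagatgtagaaaaatt
ABCD3, probe A_33_P3307955 (transcript variant 2), chr1:94944201-94944260, plus strand: gttcgagacaagcctggacaaaaagcgaga
ABCC5, probe A_33_P3298062 (transcript variant 2), chr3:183701567-183701626, minus strand: cacctgctgtacagtgtttgtgagatgctc
ABCC6, probe A_33_P3298043 (transcript variant 2), chr16:16315425-16315484, minus strand: ctggaaccaggcaatggtggggggaggcag
ABCC6, probe A_33_P3385266 (transcript variant 2), chr16:16315147-16315206, minus strand: tcttggatacacaaggtaattttagggcca
ABCC6, probe A_23_P15272 (transcript variant 2), chr16:16315075-16315134, minus strand: gttcccccactggctgtattataggacaat
ABCC6, probe A_23_P100539 (transcript variant 1), chr16:16243855-16243914, minus strand: tcatcgatagctccacacgatattgagtct
ABCC10, probe A_33_P3372566, chr6:43402538-43402597, plus strand: tatcttcatcacctatgtcctcatggggca
ABCA1, probe A_24_P235429, chr9:107543704-107543763, minus strand: ccaaagagccatgtgtcatgtaatactgaa

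Of the 71 probes, 49 were well above background on at least 1 array, 43 of them on all arrays, and these cover 33 of the 46 genes. The 4 probes that were lower in both knockdowns belong to 3 genes (ABCC3, ABCA5 and ABCA12), and the 7 that were higher in both belong to 5 genes (ABCD3, ABCC5, ABCC6, ABCC10 and ABCA1). The 4 lower probes make 8.16% of the 49, beside 7.98% of all 29334 probes that passed the same filter. The 7 higher probes make 14.3%, beside 6.58% of all probes. When the percentile was taken over those probes alone that passed background on every array, 4 probes were lower and 4 higher in both. With the normexp background correction 3 were lower and 2 higher in both. Normexp was run with an offset of 50 added to every signal, which by arithmetic shrinks the folds of dim probes. A call lost under it on a dim probe is therefore no test of that call. In bulk RNA, fewer cells with a transcript and less of it in each cell cannot be told apart.

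Counts for each knockdown include the probes called in both. In SMARCA4-KD1, 8 probes were lower (16.3%, all probes 12%) and 9 were higher (18.4%, all probes 11.5%). In SMARCA4-KD2, 6 were lower (12.2%, all probes 9.83%) and 9 were higher (18.4%, all probes 10.2%). The median log2 fold change of the family was 0.05 for SMARCA4-KD1 and 0.04 for SMARCA4-KD2, and over all probes it was 0.03 and 0.04. Values ran from -1.53 to 1.19 in SMARCA4-KD1 and from -1.33 to 1.03 in SMARCA4-KD2. Among the 43 probes well above background on all arrays, 25 lay within 1.5-fold of NC in both knockdowns. The family therefore had no common direction on these arrays, with 20 probes below NC in both knockdowns and 20 above NC in both, of 45 that had both folds.

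**Figure D1:**
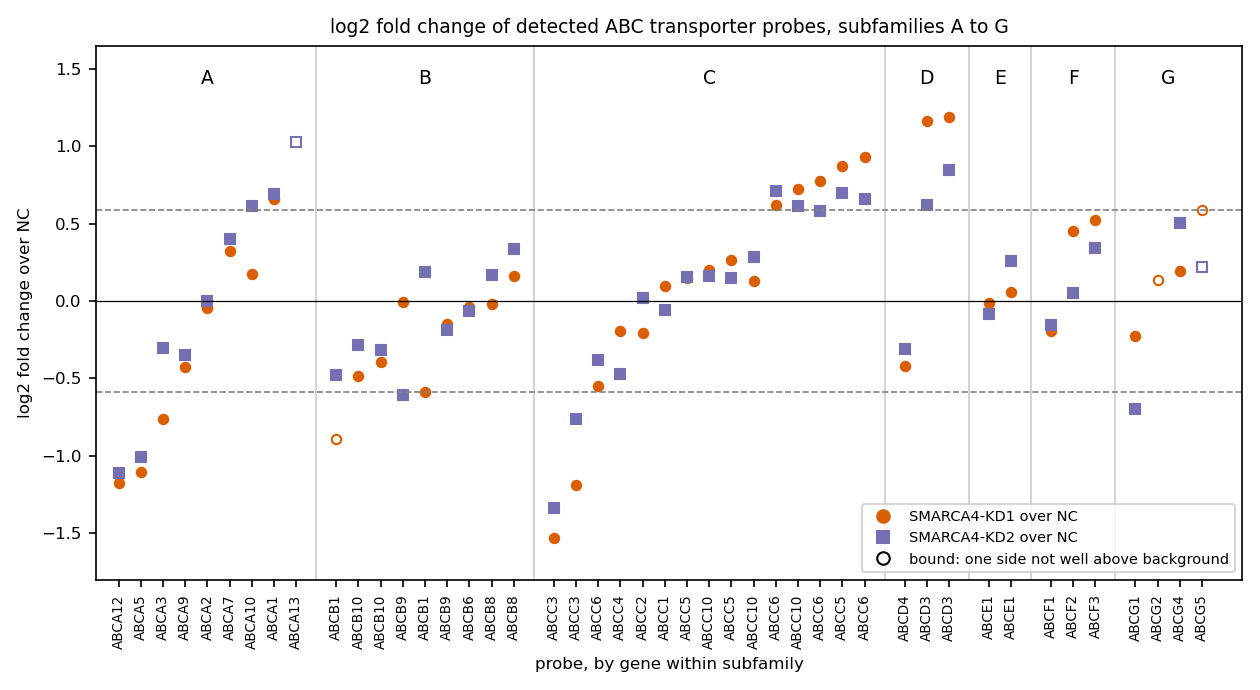
log2 fold change over NC of ABC transporter probes with a fold, grouped by subfamily A to G and ordered within it, with SMARCA4-KD1 as circles and SMARCA4-KD2 as squares. Open symbols are bounds, dashed lines mark 1.5-fold, and there is 1 array per condition. The ABCC3 probes lie lowest at -1.53 and -1.19 in SMARCA4-KD1, the ABCD3 probes highest at 1.16 and 1.19, and no subfamily B probe lies above the upper line.

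ABCC3 encodes an export pump for bile salts and glucuronide conjugates on the basolateral side of epithelial cells. Both of its probes read lower in the knockdowns. The 5′ probe, which lists transcript variant 2, read 177.3 ± 18.1 on the SMARCA4-KD1 array, 196.0 ± 19.9 on that of SMARCA4-KD2 and 483.5 ± 48.5 on that of NC (spot errors of the software). The log2 fold changes were -1.53 and -1.33, or 2.89-fold and 2.52-fold lower. The 3′ probe, 23481 bases away and listing transcript variant 1, read 326.2 ± 32.8, 422.4 ± 42.4 and 700.6 ± 70.2. Its log2 fold changes were -1.19 and -0.76. The 5′ probe thus showed the larger difference from NC in each knockdown, by 0.34 and 0.57 on the log2 scale.

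ABCA5, a lipid transporter of late endosomes and lysosomes, was about as low in either knockdown. Its probe read 270.9 ± 27.3 on the SMARCA4-KD1 array, 279.7 ± 28.2 on that of SMARCA4-KD2 and 549.4 ± 55.1 on that of NC, log2 fold changes of -1.10 and -1.01. ABCA12, which carries glucosylceramides into the lamellar granules of skin keratinocytes, read 28.3 ± 4.6, 28.6 ± 4.4 and 60.3 ± 7.3. Its log2 fold changes were -1.18 and -1.11, from signals close to the lowest that were well above background (16.9, 16.2 and 17.7 on the same arrays). The normexp correction brought them to -0.47 and -0.42, within 1.5-fold. The ABCA5 probe and both ABCC3 probes were called lower in both knockdowns under each of the 7 other settings of scaling, background, filter and floor. They were well above background on all arrays, so the filter and floor settings and the deposited table left their printed values as they were. Only the other percentile, quantile normalization and normexp could move them, and ABCA5 was at -0.93 and -0.87 under normexp.

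ABCD3 encodes the peroxisomal membrane protein PMP70, which brings long-chain and branched fatty acyl compounds into peroxisomes. Its probes had the largest differences above NC of the family in SMARCA4-KD1. Its 3′ probe read 670.5 ± 67.1 on the SMARCA4-KD1 array, 511.4 ± 51.2 on that of SMARCA4-KD2 and 277.8 ± 28.0 on that of NC, log2 fold changes of 1.19 and 0.85. The other probe, 2977 bases upstream, read 371.3 ± 37.3, 246.2 ± 24.8 and 156.6 ± 16.1, log2 fold changes of 1.16 and 0.62. Both list transcript variant 2 as their sole RefSeq transcript, and no ABCD3 probe on the array lists another variant. The values therefore concern that variant, and the level of any other ABCD3 transcript is not known from them. SMARCA4-KD1 was above SMARCA4-KD2 on both probes, by 0.34 and 0.54. The upstream probe lost its call in SMARCA4-KD2 with the other percentile, at 0.58, and under normexp, at 0.49.

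ABCC5, an exporter of cyclic nucleotides and folates, had 3 probes well above background on all arrays, all above NC but by different amounts. The middle probe, for transcript variant 2, read 928.5 ± 92.9 on the SMARCA4-KD1 array, 792.2 ± 79.3 on that of SMARCA4-KD2 and 478.7 ± 48.0 on that of NC, log2 fold changes of 0.87 and 0.69. The 5′ probe of the same variant had log2 fold changes of 0.27 and 0.15. The 3′ probe, for transcript variant 1, read 1193.3 ± 119.4, 1158.3 ± 115.9 and 1017.5 ± 101.8, with 0.15 in both knockdowns. The higher ABCC5 signal was thus seen on 1 of 3 probes.

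ABCC6, whose loss causes the calcification disorder pseudoxanthoma elasticum, was split in the same way and more widely. Its 3 probes for transcript variant 2 lay close together, 5′ of its probe for variant 1. The first of them read 84.9 ± 9.2 on the SMARCA4-KD1 array, 86.9 ± 9.3 on that of SMARCA4-KD2 and 52.0 ± 6.3 on that of NC, and the second 292.9 ± 29.5, 233.5 ± 23.6 and 144.7 ± 15. Their log2 fold changes were 0.62 and 0.71, and 0.93 and 0.66. In at least 1 knockdown each fell short of 1.5-fold under normexp (0.24 and 0.31, and 0.72 and 0.50), and the first also in SMARCA4-KD1 with the other percentile (0.56). Both also list the pseudogene ABCC6P2, whose signal they cannot separate from that of ABCC6. The third probe, which lists ABCC6 alone, read 712.9 ± 71.4, 602.1 ± 60.3 and 392.9 ± 39.5, log2 fold changes of 0.78 and 0.58, the last just under the threshold. The 3′ probe for transcript variant 1 lay below NC instead, at 28.7 ± 4.4, 31.2 ± 4.5 and 39.7 ± 5.4, log2 fold changes of -0.55 and -0.38 with errors of 0.30 and 0.29. Over the 4 probes the log2 fold change spanned 1.48 in SMARCA4-KD1 and 1.09 in SMARCA4-KD2.

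ABCC10, a drug efflux pump also called MRP7, was higher on its 5′ probe, which read 67.1 ± 7.6 on the SMARCA4-KD1 array, 60 ± 6.9 on that of SMARCA4-KD2 and 38.3 ± 5.3 on that of NC. The log2 fold changes there were 0.72 and 0.62. They were 0.67 and 0.57 with the other percentile and 0.22 and 0.19 under normexp, so that under either setting it was no longer called in both knockdowns. The other probes of the gene, both listing MRP7A, gave 0.13 and 0.28, and 0.20 and 0.16, for SMARCA4-KD1 and SMARCA4-KD2. The 5′ probe lists no RefSeq transcript.

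**Figure D2:**
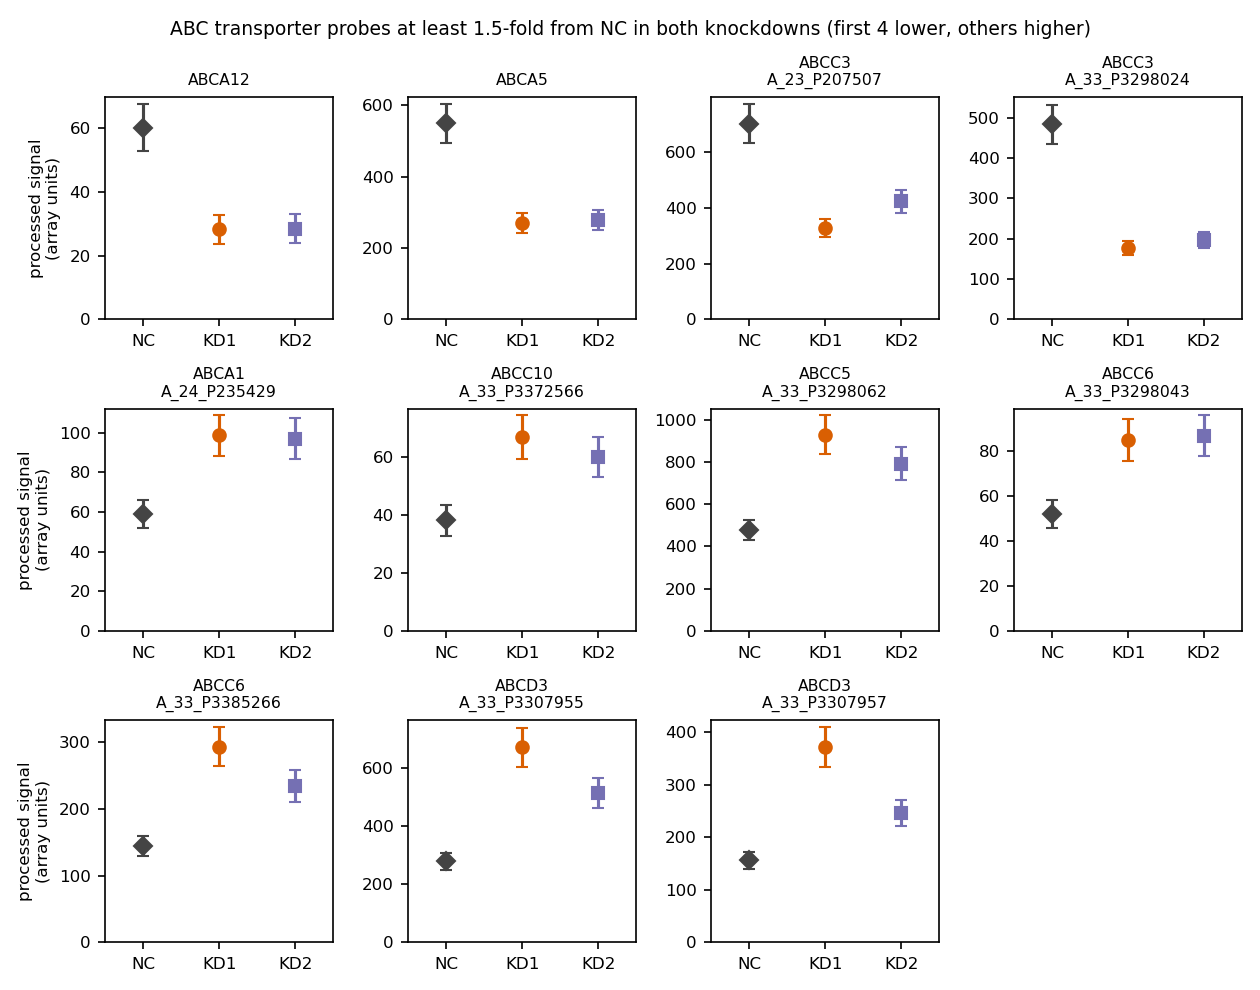
Processed signal on each array (NC diamond, SMARCA4-KD1 circle, SMARCA4-KD2 square) of the 11 ABC transporter probes called in the same direction in both knockdowns, before scaling. Bars are the spot error of the extraction software, axes start at 0, and there is 1 array per condition. In each panel both knockdown arrays lie on the same side of NC, as the choice of these probes requires, from 28.3 and 28.6 against 60.3 for ABCA12 to 670.5 and 511.4 against 277.8 for an ABCD3 probe.

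Several probes on a gene read different stretches of its transcripts from the same RNA. Among the 9 genes with at least 2 probes well above background on all arrays, 6 had the same sign on all such probes in both knockdowns. In 3 of the 9 (ABCC5, ABCC6 and ABCC10) the probes lay 1.5-fold or more apart in at least 1 knockdown. In ABCC3 and ABCD3 all probes were called in the same direction, for the upstream ABCD3 probe with the exceptions given above. The probes of ABCB10, a mitochondrial transporter needed for haem synthesis in red cell precursors, lie 214 bases apart and read alike, at -0.49 and -0.40 in SMARCA4-KD1 and -0.28 and -0.32 in SMARCA4-KD2.

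**Figure D3:**
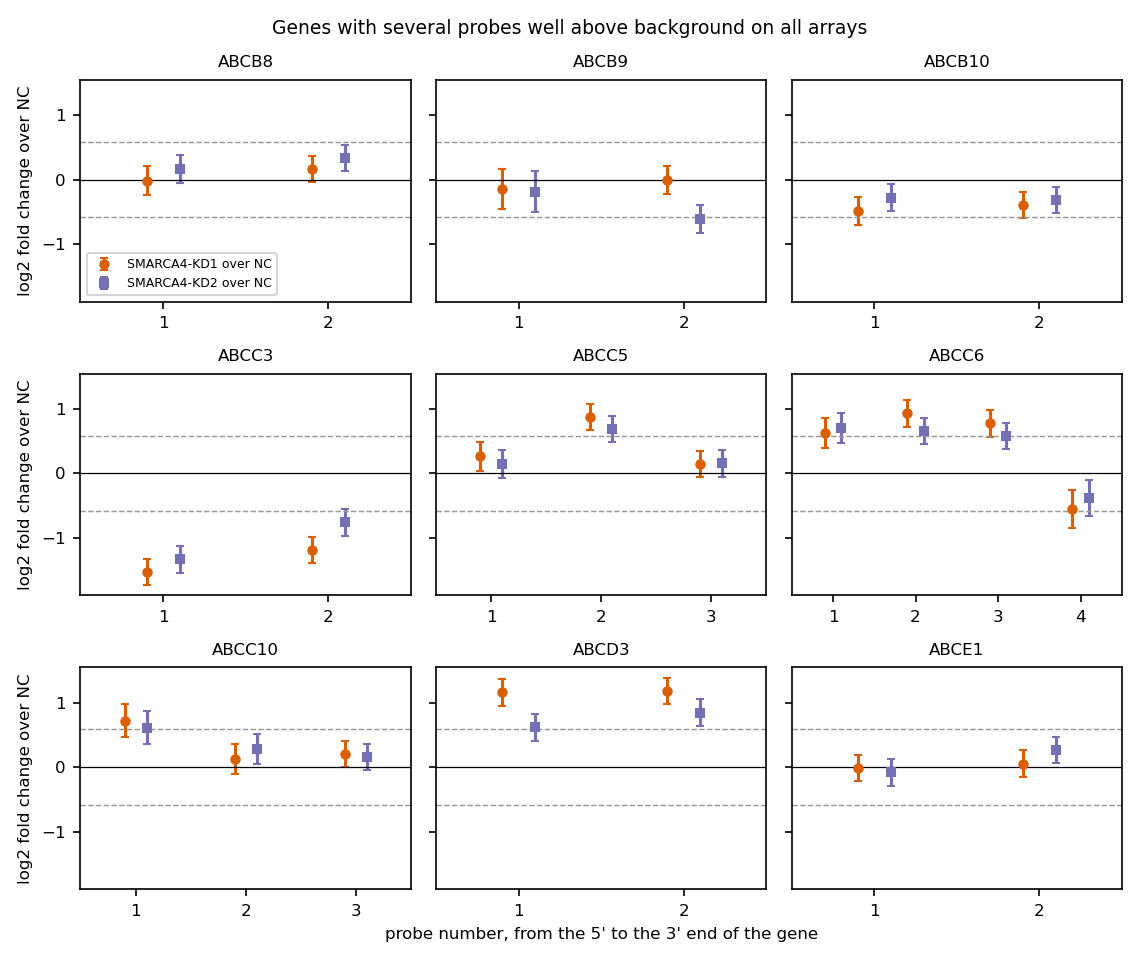
log2 fold change over NC of each probe of the 9 genes with several probes above background on every array, numbered from the 5′ to the 3′ end of the gene, with SMARCA4-KD1 as circles and SMARCA4-KD2 as squares. Bars are the error carried over from the spot errors of the software, and dashed lines mark 1.5-fold. ABCC3 is lower on both probes, ABCD3 higher on both, and in ABCC6 probes 1 to 3 lie above NC while probe 4 lies below it at -0.55 and -0.38.

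The transcript variants named for the probes were not used in their choice. Of the 10 passing probes that name transcript variant 2, 5 were higher in both knockdowns, from ABCC5, ABCC6 and ABCD3, and 1 was lower in both, the 5′ probe of ABCC3. Over all 2482 passing probes on the array that name transcript variant 2, 6.97% were higher and 7.13% lower in both. Of the 17 family probes that name transcript variant 1, none was higher and 3 were lower in both, beside 6.5% and 8.99% of 6583 such probes on the array. Only 7 of the 10 and 3 of the 17 list a single RefSeq transcript, so the others cannot separate the variants. Of those 7, 3 were higher and 1 lower in both, and of those 3, none was higher and 1 was lower. The remaining 22 name no variant or another and hold the other 2 higher probes, those of ABCC10 and ABCA1. Probes of a gene share its transcripts, the 10 variant 2 probes come from 6 genes, and no test was run.

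In subfamily A, 10 of 15 probes passed, with 2 lower and 1 higher in both knockdowns. The higher one was ABCA1, the exporter of cholesterol and phospholipid to apolipoprotein A-I, which read 98.7 ± 10.5 on the SMARCA4-KD1 array, 97.0 ± 10.3 on that of SMARCA4-KD2 and 58.9 ± 7.0 on that of NC. Its log2 fold changes were 0.66 and 0.69, and 0.34 and 0.37 under normexp, while its 5′ probe was not well above background on any array. ABCG1, which passes cholesterol to high-density lipoprotein, read 80.3 ± 8.7, 55.9 ± 6.5 and 88.6 ± 9.6. Its log2 fold changes were -0.23 and -0.70, so that it was called lower in SMARCA4-KD2 alone, with an error of 0.22 on the first value. Under normexp they were -0.09 and -0.33, and the call was lost.

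ABCA13 was well above background on 1 array, SMARCA4-KD2, at 36.8 ± 5.0, against 3.6 in SMARCA4-KD1 and 4.0 in NC. That made it at least 2.04-fold higher in SMARCA4-KD2 than in NC, and gave no fold in SMARCA4-KD1. ABCA3, the lipid transporter of lung lamellar bodies, had log2 fold changes of -0.76 and -0.30, and ABCA10 of 0.18 and 0.61, so each was called in a single knockdown. ABCA10 read 22.5 on the SMARCA4-KD1 array, 29.3 on that of SMARCA4-KD2 and 18.8 on that of NC. These signals are near background, and the errors of its fold changes were 0.41 and 0.38. The ABCA10 probe also lists the pseudogene ABCA11P, for which a separate probe outside the rule gave 0.49 and 0.57.

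Subfamily B held no probe called in both knockdowns. Of its 10 passing probes, 9 were below NC under SMARCA4-KD1 and 7 under SMARCA4-KD2, with medians of -0.27 and -0.23. Over all probes 47.7% and 46.1% were below NC. Several of these values were near 0, the probes come from 6 genes and no test was run. With quantile normalization or normexp 7 were below NC in each. ABCB9, a lysosomal peptide transporter, read 116.6 ± 12.2 on the SMARCA4-KD1 array, 74.3 ± 8.2 on that of SMARCA4-KD2 and 110.5 ± 11.7 on that of NC with its 3′ probe, called lower in SMARCA4-KD2 at -0.61 but at -0.01 in SMARCA4-KD1. On its 5′ probe the values were -0.15 and -0.19. ABCB6, a porphyrin transporter, had -0.04 and -0.06.

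The classical drug efflux pumps showed no shared change. ABCB1, or P-glycoprotein, read 49.8 ± 6.1 on the SMARCA4-KD1 array, 82.3 ± 8.9 on that of SMARCA4-KD2 and 70.7 ± 7.9 on that of NC on its 3′ probe, log2 fold changes of -0.59 and 0.19. On its 5′ probe it was not well above background in SMARCA4-KD1 (14.0) and read 21.7 ± 4.0 and 29.5 ± 4.7 in SMARCA4-KD2 and NC. That put it at least 1.85-fold lower in SMARCA4-KD1, and at -0.48 in SMARCA4-KD2. ABCC1, or MRP1, read 1071.5 ± 107.2, 927.6 ± 92.8 and 943.4 ± 94.4, log2 fold changes of 0.10 and -0.06 that are within their error of 0.20. ABCG2, the breast cancer resistance protein, was well above background in SMARCA4-KD1 alone (20.6 ± 4.1), beside 12.8 in SMARCA4-KD2 and 17.2 in NC, at least 1.1-fold higher in SMARCA4-KD1 and with no fold in SMARCA4-KD2.

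The remaining passing members of subfamily C were ABCC2, the apical exporter of bilirubin conjugates, at -0.21 and 0.02, and ABCC4, an exporter of cyclic nucleotides and prostaglandins, at -0.20 and -0.47. The subfamily held 15 passing probes of 23, all well above background on all arrays, with 2 lower and 4 higher in both knockdowns and medians of 0.15 in each. In subfamily D, 5 of 8 probes passed. ABCD4, which takes part in lysosomal export of vitamin B12, gave -0.42 and -0.31. In subfamily G, ABCG4 gave 0.20 and 0.51. ABCG5, a transporter of plant sterols, read 28.1 ± 4.5 and 21.0 ± 3.9 in the knockdowns and was not well above background in NC (12), at least 1.5-fold and 1.16-fold higher, the first of which counts as a call.

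The ribosome-acting members stayed within 1.5-fold of NC. ABCE1, which splits ribosomes after termination, had log2 fold changes of -0.01 and -0.08 on its 5′ probe and 0.05 and 0.26 on its 3′ probe. ABCF1, which takes part in translation initiation, had -0.19 and -0.16. ABCF2 gave 0.45 and 0.05 and ABCF3 0.53 and 0.34, the latter with signals of 4374.6 ± 437.5 on the SMARCA4-KD1 array, 3717.9 ± 371.8 on that of SMARCA4-KD2 and 2866.5 ± 286.7 on that of NC. None of the 5 probes of subfamilies E and F reached 1.5-fold in either knockdown.

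For 13 genes no probe was well above background on any array, which gives no fold and only a bound on their level. They were ABCA4, ABCA6 and ABCA8 in subfamily A, ABCB4, ABCB5 and ABCB11 in B, ABCC8, ABCC9, ABCC11, ABCC12 and ABCC13 in C, ABCD2 in D and ABCG8 in G. They include the liver canalicular exporters of bile salts (ABCB11) and phospholipid (ABCB4), the retinal transporter ABCA4 and the sulphonylurea receptors ABCC8 and ABCC9.

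The knockdowns were also set against each other. Their difference holds array noise and any difference between the knockdowns, but no variation between slides, so it does not give the error of a comparison with NC. Over the 44 probes well above background on both knockdown arrays, the median absolute difference was 0.18 on the log2 scale, beside 0.13 over all probes. On 2 of the 44 (4.55%, all probes 3.31%) the knockdowns were 1.5-fold or more apart. These were the 3′ probes of ABCB1, 0.78 lower in SMARCA4-KD1, and of ABCB9, 0.60 higher in SMARCA4-KD1. No probe was called in opposite directions.

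Genes that act with ABC transporters were read from lists of other ABC proteins, regulators, partners and conjugating enzymes with uptake transporters. Of 17 passing probes of regulators, 3 were higher and none lower in both knockdowns, beside 6.58% and 7.98% of all probes. NR1H2, which encodes the oxysterol receptor LXR-beta that drives ABCA1 and ABCG1, read 158.1 on the SMARCA4-KD1 array, 131.2 on that of SMARCA4-KD2 and 74.1 on that of NC, log2 fold changes of 1.01 and 0.79. NR1H3, for the related LXR-alpha, lay below NC at -0.50 and -0.36. Both probes of PPARG, a fatty acid receptor, were higher, at 0.79 in each knockdown and at 0.88 and 0.78.

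Among 17 passing probes of partners, 2 were lower and 3 higher in both, beside the same 7.98% and 6.58% of all probes. PEX19, which escorts membrane proteins such as ABCD3 to peroxisomes, read 2263.7, 2027.3 and 1276.7 in SMARCA4-KD1, SMARCA4-KD2 and NC, log2 fold changes of 0.74 and 0.64, whereas PEX3, its docking receptor, had -0.31 and -0.02 on one probe and -0.19 and 0.11 on the other. HBS1L, a ribosome rescue factor that works with ABCE1, was higher on 2 of 4 probes (1.54 and 1.39, 1.64 and 1.15) and within 0.17 of NC on the others. The 2 higher probes read 95.1 and 24.0 in NC and the others 26.2 and 7416.6. The brightest HBS1L probe was thus among those that stayed near NC, at 0.17 and 0.10. EIF2S1, the alpha subunit of initiation factor eIF2, was lower at -1.50 and -1.79. One of 2 APOA1 probes was not well above background in either knockdown and 34.8 in NC, a bound of -1.13 in each, and the other gave 0.22 and 0.01.

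Of 15 passing probes of conjugating enzymes and uptake transporters, 3 were lower and none higher in both, again beside 7.98% and 6.58% of all probes. The uptake transporter SLCO1B3 read 81.7 on the SMARCA4-KD1 array, 87.3 on that of SMARCA4-KD2 and 142.5 on that of NC, log2 fold changes of -0.89 and -0.74. SLCO3A1 was at -0.86 and -0.82 on one probe and -0.88 and -0.55 on the other, and GSTM2, a glutathione transferase, was at -0.76 and, as a bound against a dim SMARCA4-KD2 spot, -0.87. The GSTM2 signal in SMARCA4-KD1 was 18.1, near background, and the error of its fold change was 0.40. Its other probe was dim on all arrays. GCLC, the catalytic subunit of glutathione synthesis, was at 0.62 and 0.56. Of the ABC proteins with other names, TAP1 gave 0.33 and 0.47 and TAP2 0.26 and 0.07, neither called, and CFTR was not well above background.

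Promoter sequences were read from the RefSeq table (GRCh38.p14), which held 53 starts for 35 of the 46 genes. That of ABCD3 is shown as the gene whose probes were all higher and that of ABCA5 as one that was lower, each as the 250 bases before the start, along the gene's strand, with GC boxes (GGGCGG, either strand) in capitals.
ABCD3, chr1:94418139-94418388, plus strand: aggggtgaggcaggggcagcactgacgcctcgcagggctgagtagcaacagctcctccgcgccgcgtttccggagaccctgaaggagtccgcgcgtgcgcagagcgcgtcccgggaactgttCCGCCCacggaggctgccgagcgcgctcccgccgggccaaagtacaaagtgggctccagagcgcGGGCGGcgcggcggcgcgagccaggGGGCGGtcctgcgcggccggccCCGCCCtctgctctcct
ABCA5, chr17:69327134-69327383, minus strand: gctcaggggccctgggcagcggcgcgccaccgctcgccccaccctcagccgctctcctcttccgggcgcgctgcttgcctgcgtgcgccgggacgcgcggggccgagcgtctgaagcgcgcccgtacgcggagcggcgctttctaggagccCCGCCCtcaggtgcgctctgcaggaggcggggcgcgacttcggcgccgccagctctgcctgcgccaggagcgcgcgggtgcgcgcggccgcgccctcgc

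The ABCD3 stretch holds 4 GC boxes and the ABCA5 stretch 1. Of the other higher genes, ABCA1 had 3, ABCC5 1, ABCC10 3 and 0 by start, and ABCC6 0 at each start. Of the other lower genes, ABCA12 had 0 at each start, and ABCC3 had no start in the RefSeq table. The pair shown is thus no contrast between higher and lower genes. A GC box was found in 25 of the 53 starts of the family (47.2%), beside 42.6% of 35116 starts of all genes. The shares were 20.8% and 32.0% for the CCAAT box (CCAAT), 11.3% and 10.7% for the TATA box (TATAAA), 9.43% and 6.57% for the AP-1 site (TGANTCA) and 17.0% and 6.34% for the E-box (CACGTG). The E-box share of the family stands for 9 of the 53 starts. These come from 35 genes and some overlap, as those of ABCC6 do, so they are not independent, and no test was run. Both strands were searched, matches were allowed to overlap, and a match is not a bound site.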

How the data were processed

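RNA of HCT116 cells was hybridised to Agilent SurePrint G3 Human Gene Expression arrays, v3, in 1 colour (Cy3), with a single array per condition. The authors deposited scanner output with the processed intensity of each of 62976 spots, extracted with Agilent Feature Extraction 10.7.1.1 per the submitters' processing notes, background-corrected but not normalized between arrays, and a table of the same intensity, which for every member probe was equal within 0.1%. The 0 or 1 flags (well above background, saturated, outlier) and spot errors were used as deposited. The number of arrays limits the precision.

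Control spots and outlier spots were left out. Each array was scaled by subtracting, on the log2 scale, the 75th percentile of its non-control probes. Dim values were raised to the lowest signal flagged as well above background on that array unless their own was higher, and a fold against them is a bound. The filter kept 29334 probes, those flagged so on 1 array or more. No member probe was saturated or had several spots. Calls were made at 1.5-fold with no test, since each condition has 1 array, and the p of the study's methods was not computed. Of the member probes, 66 had an accession in RefSeq. The ABCF2 probe is named ABCF2-H2BK1 there and kept the file's name. Named are genes with a probe called in both knockdowns, genes with several passing probes of which 1 was called, ABCC3, the drug and sterol exporters and subfamilies E and F. The others are given by subfamily, and those of them whose values are printed, like the linked genes printed, were picked after their values were seen. Some items are not reported here. Members and lists were chosen with earlier results of these data known. Alternatives were another percentile, quantile normalization, normexp with an offset of 50 (limma 3.58.1, R 4.3.3), the deposited table, other filters, no floor, 2-fold, and 1 value per gene. Steps were tested on simulated data and run with pandas 2.3.3 and numpy 2.4.6 under Python 3.11.15, and figures were drawn with matplotlib 3.10.9.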

Additional observations from a re-analysis of the deposited data

Results flagged for a closer look

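The 3′ probe of ABCB1 was noted because the knockdowns lay on opposite sides of NC and 1.5-fold or more apart, at a log2 difference of -0.78 for SMARCA4-KD1 minus SMARCA4-KD2. The signals were 49.8 ± 6.1 on the SMARCA4-KD1 array, 82.3 ± 8.9 on that of SMARCA4-KD2 and 70.7 ± 7.9 on that of NC. The difference was not tested, since each knockdown has 1 array. On the 5′ probe of ABCB1 both knockdowns read below NC.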

How the results depend on the processing

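No paired analysis was possible because each condition has 1 array, and for the same reason no array could be left out. The main values were 4 probes lower and 7 higher in both knockdowns, 8 and 9 for SMARCA4-KD1, and 6 and 9 for SMARCA4-KD2. With the percentile taken over probes that passed background on every array, 4 were higher in both. With normexp, 2 were higher in both, 5 lower and 5 higher in SMARCA4-KD1, and 3 lower and 2 higher in SMARCA4-KD2. At 2-fold, 0 were higher in both, 4 lower and 2 higher in SMARCA4-KD1, and 3 lower and 1 higher in SMARCA4-KD2. Counted by gene with the mean over probes, 2 genes were higher in both, 3 for SMARCA4-KD1 and 4 for SMARCA4-KD2, and with the brightest probe 2, 4 and 4. The other counts were within 1.5 times the main ones. The family's median log2 fold change over both knockdowns was 0.02, and -0.15 without the filter on dim probes, as was the median of all probes in each knockdown. Of the 11 probes called in both knockdowns, 5 were called under all 7 settings of scaling, background, filter and floor: those of ABCA5, ABCC3 and 1 each of ABCC5 and ABCD3. All 11 were well above background on every array, so the filter and floor settings and the deposited table could not test their calls. No called value changed sign among the genes named by the rule above, and called values of other genes were not checked for this. Of 395 single-probe values under these settings, 15 moved by more than the spot error, all under normexp. That setting adds an offset of 50 to every signal, which by arithmetic shrinks the folds of dim probes most. A call lost under normexp on a dim probe therefore cannot decide whether the difference holds. The rest of the correction was not tested apart from the offset. Many of the 395 come from the filter and floor settings and the deposited table. Those repeat the main value of any probe well above background on every array, so the 395 overstates the check. Under normexp 15 values moved and 41 did not. Signals near background limit ABCA10, ABCA12, ABCA13, ABCG2, ABCG5 and the 5′ probe of ABCB1.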
